A study of Homo sapiens with 4 samples.

Results

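In MDA-MB-231 cells, an established human breast cancer cell line, 2124 MTF-1 peaks at transcription start sites (TSS) were found in control cells and were missing from cadmium-treated cells. These lost start-site peaks were selected from the peak lists themselves: a control peak was taken when no base of it lay in a cadmium peak and its centre lay within 1 kb of any annotated transcript start on chromosomes 1 to 22 and X. They were 2124 of the 69283 control peaks on these chromosomes and 2124 of the 18247 control peaks with a centre that close to a start. A lost start-site peak was therefore the exception among start-site peaks, of which 11.6% were lost, against 33.8% of the 51036 distal control peaks and 27.9% of all control peaks. These shares come from the overlap that defined the peaks and are given as a description.

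MTF-1 is a transcription factor with zinc fingers that responds to metal and switches on genes of metal handling and detoxification, best known for the metallothioneins, small proteins that bind zinc and cadmium. It recognises metal response elements (MREs), short DNA elements with a conserved core. A transcription start site is where RNA synthesis begins, many human genes have several, and the starts of broadly used genes often lie in DNA rich in CG dinucleotides.

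MTF-1 was profiled by CUT&RUN, in which an antibody brings a nuclease to the bound protein and the released DNA is sequenced. There were 2 libraries from control cells, which received no cadmium, and 2 from cells of the same line passaged in cadmium sulfate until they were kept at 10 µM. The authors merged both libraries of a condition before calling peaks, so each condition is 1 list of intervals built from bins of 200 bp, with no height, score or read count. Sequencing depth is unknown from these lists, the replicates' spread is not known, and the cadmium-treated cells are a passaged population of 1 line. Confidence intervals below are 95% intervals, cover counting error only, and every test compares peaks of the 2 lists, not replicates, although neighbouring peaks are not independent. A peak at a start is also not a measure of expression. Of 6 marker genes of mesenchymal or basal-like breast lines, 4 had a start-site peak in control cells and 5 in cadmium, and of 6 luminal or epithelial markers 4 had one in each condition, so start-site peaks do not separate these cell types.

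The sequences of a few lost peaks are given as examples, all on hg38. The peak at GIMAP8, a GTPase of immunity-associated protein family gene, was the widest lost peak at the canonical start of a protein-coding gene that had no start-site peak left in cadmium. The canonical start is that of the transcript the annotation chooses to represent the gene. Its central 300 bases (chr7:150451251-150451550, plus strand, in an intron) held the MRE core, searched as TGCACNC or TGCGCNC on both strands, at 2 positions, shown in capitals. The peak at ARAP1, a regulator of small GTPases, was among the 5 widest of all, and its centre (chr11:72694951-72695250, plus strand, in an intron) held 1 AP-1 string, searched as TGACTCA or TGAGTCA. The peak before APOBEC2, a member of the APOBEC family found in muscle, held an AP-1 string, an MRE core and a forkhead string (ATAAACA or ATAAATA, or either of these with G as the first base) close to its centre (chr6:41052355-41052537, plus strand). These examples are shown for their matches. Most of the other centres examined among the widest lost peaks, such as those at ARRB1, LPIN3 and PSD2, held none of these strings.
GIMAP8: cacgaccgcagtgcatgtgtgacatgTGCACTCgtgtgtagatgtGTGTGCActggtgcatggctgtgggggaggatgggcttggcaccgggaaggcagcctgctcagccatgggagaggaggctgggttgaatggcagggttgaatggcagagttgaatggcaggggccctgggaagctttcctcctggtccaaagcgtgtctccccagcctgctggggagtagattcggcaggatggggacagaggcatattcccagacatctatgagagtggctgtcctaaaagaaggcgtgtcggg
ARAP1: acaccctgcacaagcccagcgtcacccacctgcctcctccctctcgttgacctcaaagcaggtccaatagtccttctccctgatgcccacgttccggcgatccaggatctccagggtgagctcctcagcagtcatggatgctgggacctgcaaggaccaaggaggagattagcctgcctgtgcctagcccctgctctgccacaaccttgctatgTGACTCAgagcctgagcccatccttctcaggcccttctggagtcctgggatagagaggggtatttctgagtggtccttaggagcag
APOBEC2: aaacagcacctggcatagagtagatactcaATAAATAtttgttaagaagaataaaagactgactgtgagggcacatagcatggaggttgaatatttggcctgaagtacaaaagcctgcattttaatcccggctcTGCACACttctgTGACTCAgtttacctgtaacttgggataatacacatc

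The 300 bases directly before 3 canonical starts inside lost peaks differed in base composition, again with string matches in capitals. Their GC content was 59.7% at EIF4EBP3, 74.3% at FAM163B and 56% at REM2. They do not span the full range, since this stretch had 46% at GIMAP8 and 77.3% at PSD2. EIF4EBP3 encodes a translation inhibitor that binds eIF4E, and its upstream stretch (chr5:140547362-140547661, plus strand) held 2 forkhead strings side by side and 15 CG dinucleotides. FAM163B had the only CpG-rich centre among the 10 widest lost peaks of this kind, and its upstream stretch (chr9:133609390-133609689, minus strand) held 37 CG dinucleotides. REM2, a small GTPase of the RGK family, had 3 CG dinucleotides and none of the strings in its upstream stretch (chr14:22882922-22883221, plus strand).
EIF4EBP3: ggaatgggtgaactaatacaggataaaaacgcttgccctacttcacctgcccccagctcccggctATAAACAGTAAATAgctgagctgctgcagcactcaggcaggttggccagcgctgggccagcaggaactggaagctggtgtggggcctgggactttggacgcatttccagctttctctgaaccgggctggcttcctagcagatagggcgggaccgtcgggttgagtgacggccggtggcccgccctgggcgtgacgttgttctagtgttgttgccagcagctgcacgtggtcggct
FAM163B: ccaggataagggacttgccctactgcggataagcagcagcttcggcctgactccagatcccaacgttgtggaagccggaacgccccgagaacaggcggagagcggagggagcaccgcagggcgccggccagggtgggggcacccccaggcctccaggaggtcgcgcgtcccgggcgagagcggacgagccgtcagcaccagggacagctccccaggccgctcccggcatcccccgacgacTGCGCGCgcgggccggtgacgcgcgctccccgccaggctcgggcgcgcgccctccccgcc
REM2: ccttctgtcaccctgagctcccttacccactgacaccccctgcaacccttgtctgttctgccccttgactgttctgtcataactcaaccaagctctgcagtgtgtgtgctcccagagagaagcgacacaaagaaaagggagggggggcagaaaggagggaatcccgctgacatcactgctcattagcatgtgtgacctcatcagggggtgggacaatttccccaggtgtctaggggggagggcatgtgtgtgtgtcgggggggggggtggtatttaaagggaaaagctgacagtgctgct

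Lost start-site peaks were narrow. Their median width was 1199 bp, with quartiles of 599 and 2199 bp and a range from 199 bp, a single bin, to 8999 bp. The 16123 start-site peaks that shared at least 1 base with a cadmium peak, called retained here, had a median of 2199 bp with quartiles of 1399 and 3399 bp. Lost distal peaks were narrower, with a median of 799 bp and quartiles of 599 and 1599 bp, and the 1127 start-site peaks gained in cadmium were narrower still, with a median of 599 bp and quartiles of 399 and 1199 bp. Single bins made up 2.64% of the lost start-site peaks, and 1113 of them, or 52.4%, spanned at least 1000 bp. A wide peak was lost less often. Of control start-site peaks of 199 bp, 52.3% were lost (43.0 to 61.6%), against 15.7% of those of 999 to 1199 bp and 3.36% of those of 3999 bp or more. Among distal peaks the share fell from 56.9% to 14.0% over the same range of widths. Width and loss both come from the peak lists, so no test was run on them.

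**Figure D1:**
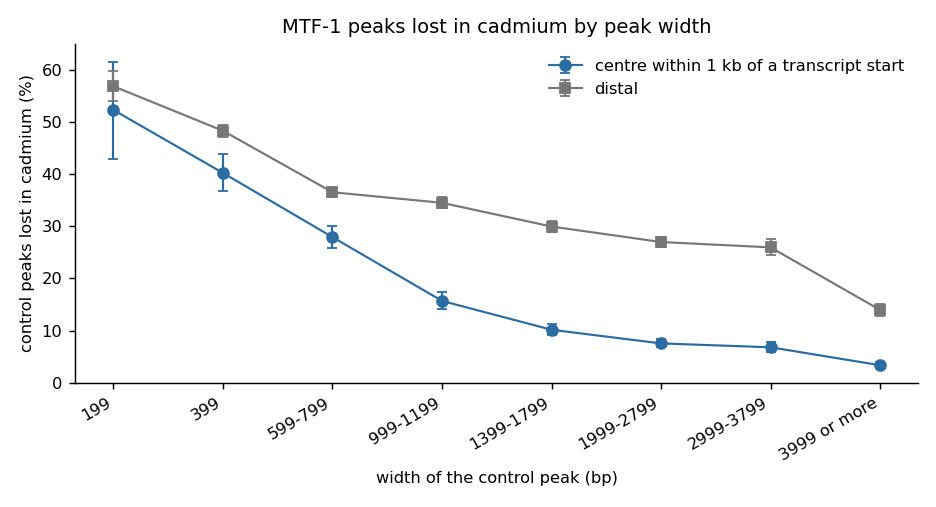
Share of control MTF-1 peaks lost in cadmium (y axis, percent) by width of the control peak (x axis, bp), for peaks with a centre within 1 kb of a transcript start (circles) and for distal peaks (squares), with bars as 95% Wilson intervals. Both shares fell with width, from 52.3% to 3.36% at starts and from 56.9% to 14.0% at distal sites.

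At the edges of the definition the numbers were small. Of the lost start-site peaks, 16 had a centre 990 to 1000 bp from the closest start, with a median width of 1499 bp, and 13 lost peaks just outside, at 1001 to 1010 bp, had a median width of 999 bp. A cadmium peak occupied the adjoining bin of 10 lost start-site peaks, which had a median width of 2199 bp, and 156 retained start-site peaks shared 1 bin of 199 bp with the cadmium list, with a median width of 399 bp. Most lost peaks were not such near misses. The gap to the closest cadmium peak had a median of 8601 bp (quartiles 3201 and 24601 bp), and it was 1000 bp or less for 82 peaks, or 3.86%. For lost distal peaks the median gap was 10601 bp.

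The genes at the lost peaks differed in kind from those at retained peaks. By the closest start, 1323 lost peaks, or 62.3% (60.2 to 64.3%), belonged to protein-coding genes, against 77.3% (76.7 to 78.0%) of retained start-site peaks. This corresponded to an odds ratio of 0.484 (0.440 to 0.533, adjusted p = 1.79e-47 over 10 Fisher's exact tests, two-sided), and within strata of equal peak width it was 0.653 (0.590 to 0.722). Long noncoding RNA (lncRNA) genes were closest to 540 lost peaks, or 25.4% against 17.4% of the retained. Pseudogenes, copies of genes that have usually lost their coding function, were closest to 144, or 6.78% against 2.85%. Genes of small RNAs were closest to 97, or 4.57% against 1.95%, and 20 peaks lay at genes of other types.

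Read the other way, the share lost was 9.59% of control start-site peaks at protein-coding genes (9.11 to 10.1%), 16.2% at lncRNA genes, 23.8% at pseudogenes (20.6 to 27.4%) and 23.5% at small RNA genes (19.7 to 27.9%). The highest shares among types with 20 or more lost peaks were those of processed pseudogenes, which arose by reverse transcription of an mRNA, and of small nuclear RNA genes and their copies. Of the former, 98 peaks, or 32.2% of the control peaks, were lost, and of the latter 38 peaks, also 32.2%. Pseudogenes and small RNA genes have near-identical copies, so reads at these sites can be hard to place, and how the authors handled reads with several matches was not examined here.

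**Figure D2:**
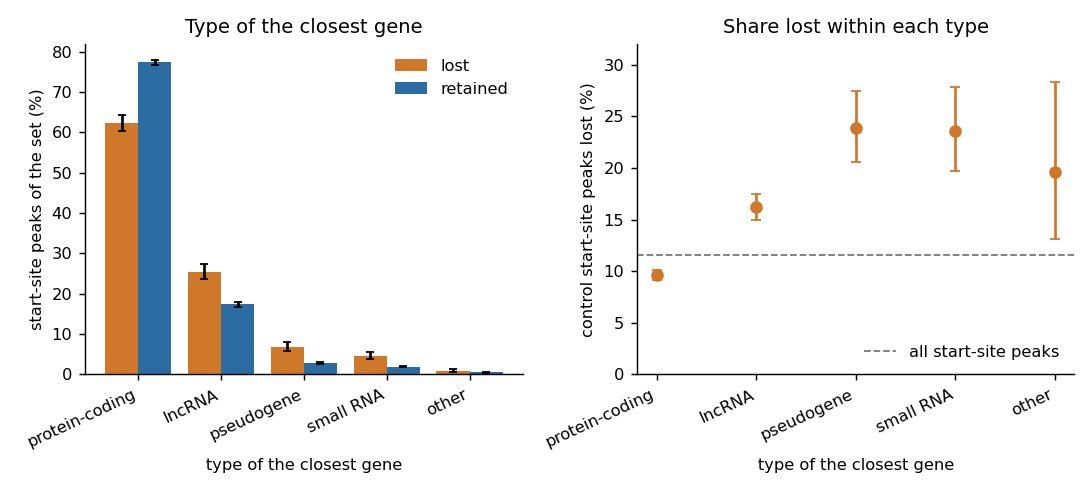
Left, type of the gene with the closest transcript start for 2124 lost and 16123 retained start-site peaks (y axis, percent of the set). Right, share of control start-site peaks lost within each type (y axis, percent), with the dashed line at 11.6% for all start-site peaks and bars in both panels as 95% Wilson intervals. Protein-coding genes made up 62.3% of the lost and 77.3% of the retained, and the share lost was above the line for the noncoding types.

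The closest transcript was also of a different kind. For 632 lost peaks it was a protein-coding transcript, and 7.34% of control peaks at such transcripts were lost. For 323 it was a transcript annotated with a retained intron, of which 17.1% were lost, and for 298 a transcript of a coding gene without a defined coding sequence, of which 13.9% were lost. Transcripts marked for nonsense-mediated decay, a pathway that destroys mRNAs with early stop codons, were closest to 67 lost peaks, or 5.78% of the control peaks at such transcripts.

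Many lost peaks lay at minor starts. No canonical start lay within 1 kb of 1079 lost peaks, or 50.8%, against 3808 retained peaks, or 23.6%. For having any canonical start within 1 kb the odds ratio of lost to retained was 0.299 (0.273 to 0.328, adjusted p = 9.22e-140 by Fisher's exact test), and within width strata it was 0.380 (0.345 to 0.419). Where no canonical start was that close, the median distance to the canonical start of the closest gene was 28184 bp. Asked only of the single closest start, the comparison went the other way, since it was canonical for 36.3% of lost and 32.9% of retained peaks (odds ratio 1.16, 1.06 to 1.28, Fisher's exact test, adjusted p = 0.00186), and within width strata the odds ratio was 1.05 (0.948 to 1.16). For protein-coding genes the share lost was 4.23% of the 9548 control peaks with a canonical start within 1 kb, or 404 peaks, and 21.7% of those without one, or 919 peaks. For lncRNA genes these shares were 14.0% and 26.1%.

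Lost peaks were also less tightly placed on the start. The median distance from the centre to the closest start was 319 bp, against 207 bp for retained peaks. The peak covered that start in 1653 cases, or 77.8%, against 94.1%, and the centre lay within 250 bp in 41.4% against 56.2%. The centre was in an intron for 1162 lost peaks (54.7%, 52.6 to 56.8%), in an exon for 667 (31.4%) and outside annotated genes for 295 (13.9%). Of retained start-site peaks 44.4% were centred in an intron and 40.6% in an exon. Of lost distal peaks 60.0% were centred in an intron and 4.90% in an exon.

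The gene at a lost peak often kept MTF-1 at another of its starts. The closest gene had a start-site peak in cadmium at a different start for 913 lost peaks, or 43.0%, and at the very start for 8, where a cadmium peak was centred within 1 kb without touching the lost peak. In 894 of the 913 cases a start-site peak of the gene was shared by both lists, and in 19 the gene had gained ones only. For 1203 lost peaks, or 56.6% (54.5 to 58.7%), no start of the closest gene had a peak in cadmium. Of these, 383 still had a cadmium peak inside the gene and 820 had none. Counted over every gene with a start within 1 kb, 947 lost peaks, or 44.6%, had a gene with a start-site peak in cadmium.

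This divided by gene type and by start. Of 1133 lost peaks at a noncanonical start of a protein-coding gene, 71.1% (68.3 to 73.6%) had another start of the gene occupied in cadmium. Of 190 at the canonical start itself, 163, or 85.8% (80.1 to 90.1%), had none. Both groups rest on the closest start alone. Of the 1133 lost peaks at a noncanonical start, 955 lay over 1 kb from the canonical start of their gene, and the rest lay nearer to it. The closest coding genes with another start occupied had a median of 12 annotated start positions, and those with none had 5. At lncRNA genes 458 of 540 lost peaks, or 84.8%, left no start-site peak in cadmium, at pseudogenes 140 of 144 and at small RNA genes all 97. A gene with a single annotated start cannot have another one occupied, so for such genes this outcome was largely fixed by the annotation. Starts per gene were not counted for the noncoding types.

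**Figure D3:**
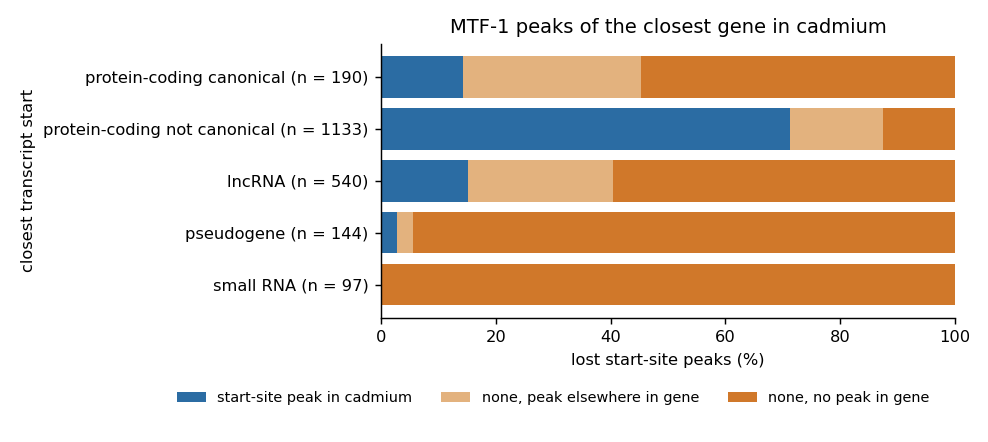
MTF-1 peaks in cadmium at the gene closest to each lost start-site peak (x axis, percent of lost peaks), by kind of the closest start, with the number of lost peaks in parentheses. Blue marks genes with a start-site peak in cadmium, light orange genes with none at a start but one inside the gene, and dark orange genes with no cadmium peak, and blue covers most noncanonical coding starts but 14.2% of canonical ones.

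The lost peaks belonged to 2008 closest genes, of which 1226 were protein-coding and 521 lncRNA. No start-site peak remained in cadmium at 464 of these coding genes and at 449 of the lncRNA genes. Among all protein-coding genes with a control start-site peak, 9.78% had a lost one and 3.81% had a lost one and none in cadmium. For lncRNA genes these shares were 11.7% and 10.2%. At least 2 lost peaks fell on 104 genes, and 11 genes had 3 or more.

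The widest lost peaks lay at internal starts and, at ENSG00000223901, 44 bp from a canonical one. The widest, at 8999 bp (chr11:75276801-75285799), lay at an internal start of ARRB1, 70361 bp from the canonical start of that gene. ARRB1 encodes beta-arrestin 1, which turns off and relays signals of G protein-coupled receptors. The closest cadmium peak was 27601 bp from the lost peak, and ARRB1 had a start-site peak at another start in cadmium. The others were at LPIN3, a phosphatidate phosphatase of lipid synthesis, with 8799 bp, at ARAP1 with 8199 bp, at the lncRNA gene ENSG00000223901 with 8199 bp and at PPP6R1, a regulatory subunit of protein phosphatase 6, with 7799 bp. LPIN3 and ARAP1 had another start occupied in cadmium, and ENSG00000223901 and PPP6R1 had none. PEDS1, an enzyme of plasmalogen synthesis, had a lost peak of equal width, 7799 bp, and DNMT1, the maintenance DNA methyltransferase, one of 7399 bp at an internal start 52053 bp from the canonical one. Both genes kept a start-site peak elsewhere. DNMT1 carried 10 control peaks and 5 cadmium peaks inside the gene.

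The 10 widest lost peaks at canonical starts of coding genes without a start-site peak in cadmium were at GIMAP8 (7199 bp), PSD2 (4399 bp), FAM83C (4199 bp), REM2 (3799 bp), APOBEC2 and TMEM233 (3599 bp each), and EIF4EBP3, FAM163B, PANX3 and CYP2F1 (3399 bp each). Several of these are genes of specialised tissues. GIMAP8 is known from lymphocytes, APOBEC2 from muscle, PANX3, a pannexin channel, from cartilage and bone, and CYP2F1, a cytochrome P450, from lung. GIMAP8, TMEM233, EIF4EBP3 and PANX3 had no cadmium peak inside the gene, and at TMEM233 the closest cadmium peak was 72201 bp away. The canonical starts of lncRNA genes gave ENSG00000254963 with 5999 bp, ENSG00000236772 with 5799 bp, ENSG00000268289 with 5599 bp, ENSG00000254975 with 5199 bp and ENSG00000255244 with 4999 bp, none of which had a start-site peak in cadmium.

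Some genes lost several start-site peaks. CASC15, a lncRNA gene on chromosome 6, had 4 lost start-site peaks of 2799, 1199, 799 and 399 bp, no start-site peak in cadmium, and 28 control against 6 cadmium peaks inside the gene. PDE2A, a phosphodiesterase that breaks down cyclic nucleotides, had 3 (4399, 2799 and 2799 bp) and 13 control against 5 cadmium peaks in the gene. NADSYN1, an NAD synthetase, had 3 (3999, 2999 and 2799 bp) and 7 against 2. LINC01588 and MICAL2, an enzyme that oxidises actin, had 3 each, with 21 against 19 and 27 against 20 peaks in the gene. These last 4 genes all kept a start-site peak elsewhere in cadmium. PDE2A, NADSYN1 and MICAL2 lie on chromosome 11.

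No lost start-site peak was found at metallothionein, zinc transporter or AP-1 family genes, although the numbers of these genes were small. Of 11 metallothionein genes, 3 had a control start-site peak and 0 of the 3 had a lost one. That is too few to set beside the background. Of the 17 zinc transporter genes with a control start-site peak 0 had a lost one, which allows a share of up to 17.6%. Of 8 AP-1 family genes with a control start-site peak 0 had a lost one, which allows up to 37.5%. These are rough limits that divide 3 counts by the number of genes, and both lie above the 9.78% of all coding genes. Of 21 oxidative stress and glutathione genes with a control start-site peak, SLC7A11, the cystine transporter, and GCLC, which starts glutathione synthesis, each had a lost peak, of 599 and 399 bp, at a noncanonical start, and both kept a start-site peak in cadmium. Zinc finger genes, the largest list, had 7 losses among 460 genes, or 1.52%, the widest at ZNF418 (1799 bp, none in cadmium). Ribosomal protein genes had 1 (RPL37) among 61. Cell cycle and DNA repair genes had 1 among 28, at a noncanonical start of CDKN1B, an inhibitor of cyclin-dependent kinases, which kept another start-site peak. The lists counted every gene with a start within 1 kb, and the start closest to the CDKN1B peak was that of GPR19. Of 19 forkhead factor genes, FOXP1 and FOXK2 had lost peaks and kept others, and the start closest to the FOXK2 peak was that of ENSG00000261845.

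Genes of channels, cell adhesion, matrix and development had lost peaks more often. Beside the 9.78% over all coding genes, the share with a lost start-site peak was 34.4% for potassium, sodium and calcium channels (22 of 64), 38.7% for cadherins and protocadherins (12 of 31), 26.8% for matrix proteins and their proteases (22 of 82), 21.6% for developmental transcription factors (11 of 51) and 23.8% for claudins and keratins (5 of 21). Beside 3.81% over all coding genes, a lost peak with none left in cadmium was found for 13 channel genes (20.3%), 8 cadherin genes (25.8%), 11 matrix genes (13.4%), 7 developmental factor genes (13.7%) and 4 claudin and keratin genes (19.0%). Cytokines and chemokines had 6 such genes among 38 (15.8%). The lists were chosen with earlier results of these data known and their members overlap in position, so no list was tested.

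Among adhesion genes the widest loss at a canonical start was at CDH11, a cadherin of mesenchymal cells (chr16:65119801-65124399, 4599 bp, centred 8 bp from the start), with the closest cadmium peak 48601 bp away and no start-site peak in cadmium. CDH4 had 2 lost peaks of 3999 bp at internal starts and CDH23 1 of 2399 bp, and both kept another start. At PCDHA4 and PCDHGC5, genes of the clustered protocadherins, lost peaks of 2199 and 1799 bp left no start-site peak, and at DSC2, a desmosomal cadherin, 1 of 1999 bp. The start closest to the DSC2 peak was that of DSCAS. CDH1, which encodes E-cadherin, lost a peak of 1399 bp at a noncanonical start and kept another start-site peak. KRT83, KRT17, KRT4 and KRT39 each had a lost peak (3199, 1599, 1599 and 799 bp) and none in cadmium, and CLDN2 kept one.

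Among channel genes wide losses lay at KCNG1 (5199 bp), CACNA2D4 (3399 bp) and SCN4A (3199 bp), all at noncanonical starts of genes that kept another, while KCNH2, the cardiac hERG channel (3399 bp), and KCNAB3 (2599 and 2199 bp) had no start-site peak in cadmium. The peak of 2199 bp at KCNAB3 was 1 of the 10 with a cadmium peak in the adjoining bin. Among matrix genes ADAMTS10 and ITGB2 (3799 bp each), ITGAE (2599 bp) and ADAM11 (1999 bp) kept another start, and ADAM12 (2599 bp) and MMP17 (2199 bp), both metalloproteinases, did not. The collagen gene COL1A2 and the collagenase gene MMP13, named after their values were seen, lost peaks of 1199 and 1399 bp at their canonical starts and had none in cadmium.

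Signalling and developmental genes on the lists lost peaks of moderate width. FGF4 and FGF3, growth factor genes that neighbour each other on chromosome 11, lost peaks of 3199 and 2999 bp at their canonical starts, and WNT5A, a secreted WNT ligand, one of 2599 bp, with no start-site peak of these genes in cadmium. BMP1, FGF1 and WNT10B lost peaks of 2399, 2199 and 1199 bp and kept another start, and FGF13 lost one of 1199 bp and did not. The WNT, FGF and TGF-beta list as a whole stood at 8 of 61 genes, or 13.1%. Of the developmental factors, IRX1 and PAX9 lost CpG-rich peaks of 2599 and 1399 bp (PAX9 by its values, outside the 6 widest) and had none in cadmium, at IRX1 with 282801 bp to the closest cadmium peak. TBX4 lost one of 3399 bp and had none, and HOXC6, POU2F2, LHX9 and SOX13 (2999, 2199, 1599 and 1599 bp) kept another start. The start closest to the TBX4 peak was that of ENSG00000267137. Of the cytokine genes, IFNL1 lost 2799 bp, TNFSF13B 999 bp, TNFSF18 799 bp and IL1A 599 bp, and IL10 and IL19 shared 1 lost peak of 399 bp. None of these 6 had a start-site peak in cadmium.

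Solute carriers, small GTPase regulators and cytokine receptors had shares nearer to the background of 9.78%. Solute carriers other than zinc transporters had 29 of 207 genes with a lost peak (14.0%), with SLC35E1 (4399 bp), SLC12A5 (3999 bp), SLC13A3 (3799 bp) and SLC22A5 (2999 bp) keeping another start and SLC2A14 (2799 bp) having none. Small GTPase regulators had 15 of 110 (13.6%), and 14 of the 15 kept a start-site peak, among them ARHGAP39 (4799 bp) and ARHGEF17 (4199 and 3199 bp). The exception was DOCK8 (1199 bp). Cytokine and TNF receptor genes had 3 of 42 (7.14%), at CCR7, IL1RAP and IL12RB2. Of 415 olfactory receptor genes 6 had a control start-site peak, and 4 of the 6, or 66.7%, had a lost one and none in cadmium (OR9Q2, OR8B8, OR2A14 and OR2F2). Of the marker genes, ESR1, the oestrogen receptor, lost peaks of 1199 and 399 bp and had no start-site peak in cadmium, with 13 control and 9 cadmium peaks inside the gene, and ZEB1, a mesenchymal transcription factor, lost one of 399 bp and kept another.

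The lost peaks at small RNA genes included those at 30 microRNA (miRNA) genes, which encode short RNAs that repress mRNAs through their seed, bases 2 to 8. These 30 peaks were 19.7% of control start-site peaks at miRNA genes, beside 23.5% at small RNA genes and 11.6% of all start-site peaks. The annotated start of a miRNA gene is the end of the hairpin and not the start of the longer primary transcript. Of the 30, 27 matched RefSeq by symbol, and 5 known from cancer studies were chosen after their values were seen. MIR100 (chr11:122150601-122154399, 3799 bp), MIR182 (chr7:129769801-129772399, 2599 bp), MIR9-2 (chr5:88665801-88668199, 2399 bp) and MIR145 (chr5:149430001-149431599, 1599 bp) lay inside their lost peaks, and the peak at MIR30C2 (chr6:71375601-71376799, 1199 bp) ended short of the hairpin. Their mature 5′-arm sequences on GRCh38.p14 follow with the seed in capitals, and the 5 seeds differ from each other. MIR100 lies in the host gene MIR100HG, which had 3 lost start-site peaks of its own (2199, 1599 and 999 bp) and kept another.
hsa-miR-100-5p: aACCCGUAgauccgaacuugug
hsa-miR-182-5p: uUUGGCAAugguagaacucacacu
hsa-miR-9-5p: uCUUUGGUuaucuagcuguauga
hsa-miR-145-5p: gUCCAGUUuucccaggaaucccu
hsa-miR-30c-5p: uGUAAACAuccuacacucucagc

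In sequence, the lost start-site peaks stood between retained start-site peaks and lost distal peaks. A centre was called CpG-rich when its 500 bp held over 50% GC and an observed to expected CG ratio over 0.6. This was true of 230 lost peaks, or 10.8% (9.58 to 12.2%), of 52.2% of retained start-site peaks and of 1.00% of lost distal peaks, beside 37.6% of the 500 bp windows around all 218307 annotated starts. Lost against retained, the odds ratio was 0.111 (0.0966 to 0.128), and within width strata 0.144 (0.125 to 0.166). Lost start-site against lost distal peaks, it was 12.0 (9.78 to 14.7, Fisher's exact test, adjusted p = 1.9e-115). The rule separated these sets by their distance to a start, and windows around annotated starts are often CpG-rich. The selection therefore favoured this direction, and no conclusion is drawn from that odds ratio. The median GC content of the centre was 48.4% in lost and 59.8% in retained start-site peaks.

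The split by CpG content was wide. Of control start-site peaks with a CpG-rich centre 2.66% were lost (2.34 to 3.02%), and of the others 19.7% (19.0 to 20.5%). At protein-coding genes these shares were 2.33% and 17.9%, and at lncRNA genes 4.48% and 21.5%. The few CpG-rich losses left no start-site peak of the closest gene in cadmium in 188 of 230 cases, or 81.7%, and the others in 53.6%. CDH11, FGF3, FGF4, WNT5A, IRX1 and FAM163B were among the CpG-rich losses.

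The strings of 3 transcription factor classes were then counted in the central 500 bp, on both strands. The forkhead string was in 699 lost peaks, or 32.9% (30.9 to 34.9%), 15.8% of retained start-site peaks, 42.1% of lost distal peaks and 21.8% of all annotated starts. Lost against retained, its odds ratio was 2.61 (2.36 to 2.88, Fisher's exact test, adjusted p = 8.05e-72). It was 2.17 within width strata, 1.25 (1.12 to 1.40) within strata of equal GC content and 1.27 (1.13 to 1.43) within strata of both. Searched in the whole peak, which is longer for retained peaks, it was 0.746. The forkhead string is made mostly of A and T, and the retained peaks were richer in G and C.

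The AP-1 string was in 402 lost peaks, or 18.9%, 10.7% of retained start-site peaks, 25.2% of lost distal peaks and 6.75% of all annotated starts. Lost against retained, this gave an odds ratio of 1.94 (1.72 to 2.19, Fisher's exact test, adjusted p = 6.06e-25), but 0.982 (0.860 to 1.12) within width strata, 1.11 (0.979 to 1.26) within GC strata, 0.713 (0.622 to 0.818) within both and 0.879 in the whole peak. A higher share of AP-1 strings in lost than in retained start-site peaks of equal width was therefore not found. The MRE core was in 723 lost peaks, or 34.0%, 46.2% of retained start-site peaks, 28.2% of lost distal peaks and 39.7% of all annotated starts. Its odds ratio was 0.601 (0.547 to 0.661, Fisher's exact test, adjusted p = 2.28e-26), 0.700 within width strata, 0.981 (0.885 to 1.09) within GC strata and 1.01 (0.910 to 1.12) within both, and 0.290 (0.264 to 0.320) when searched in the whole peak, which is longer for retained peaks. The longer MTF-1 motif of the JASPAR collection, TGCACACG, which contains the MRE core, was in 19 lost peaks, or 0.895%, 1.18% of retained start-site peaks, 0.702% of lost distal peaks and 0.904% of all starts.

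Against lost distal peaks the lost start-site peaks had fewer AP-1 strings (odds ratio 0.694, Fisher's exact test, adjusted p = 1.35e-10), fewer forkhead strings (0.674, adjusted p = 2.92e-16) and more MRE cores (1.32, adjusted p = 3.35e-08). Within GC strata these odds ratios were 0.890, 1.01 and 0.921, and none passed the 0.05 threshold. The rule split these sets by distance to a start, so their crude differences are not independent of the selection. A string match is a description of the bases and not a bound site.

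**Figure D4:**
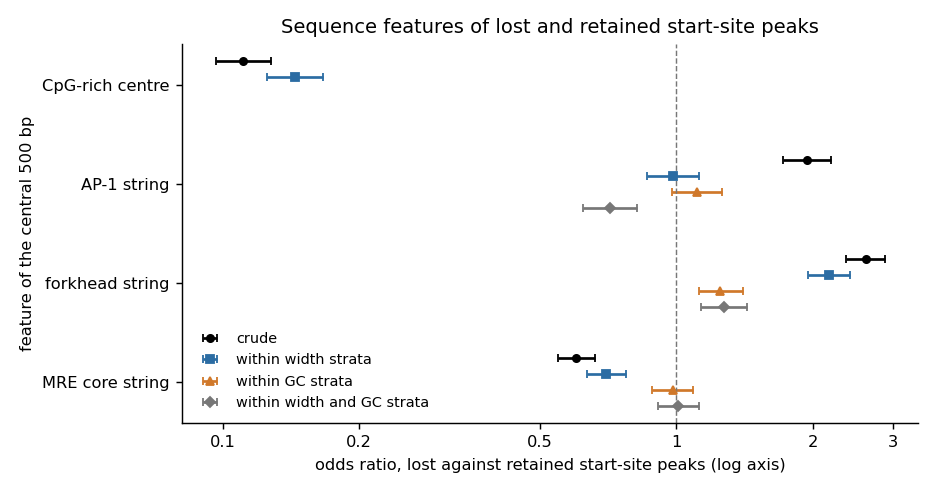
Odds ratios of 4 sequence features in the central 500 bp, lost against retained start-site peaks (x axis, log scale), crude and within strata of peak width, GC content or both, with bars as 95% intervals and CpG-rich centres not stratified by GC. The CpG-rich odds ratio was 0.111 crude and 0.144 within width strata, the forkhead odds ratio stayed above 1 in each of the 4 settings, and those of AP-1 and the MRE core crossed or reached 1.

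The share of start-site peaks lost also varied along the genome. It was highest on chromosome 11, at 18.4% (196 lost peaks), followed by chromosomes 4 with 17.0%, 14 with 16.2% and 20 with 15.6%, and lowest on chromosomes 22 with 4.89% and 16 with 5.53%. On chromosome 11 it was 6.57% between 55 and 70 Mb (18 of 274), 38.0% between 70 and 80 Mb (49 of 129, 30.1 to 46.6%) and 24.1% from 80 Mb to the end (76 of 316). These boundaries were drawn after the values were seen. All peaks, start-site and distal together, moved with them, since 15.3%, 51.8% and 47.1% of all control peaks were lost in these 3 stretches, and the cadmium list held 1.02, 0.554 and 0.622 peaks per control peak. Read depth in these stretches is unknown from the lists, and its part in the differences was not tested.

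Of 350 windows of 5 Mb with at least 20 control start-site peaks, the median share lost was 11.1% and the 90th percentile 21.5%. The highest shares were 40.4% and 36.6% in the windows at 75 to 80 and 70 to 75 Mb of chromosome 11, 36.7% at 145 to 150 Mb of chromosome 7 and 34.7% at 10 to 15 Mb of chromosome 12. ARRB1, ARAP1, PDE2A and NADSYN1 lie in the chromosome 11 stretch from 70 to 80 Mb, and GIMAP8 lies just beyond the window on chromosome 7. Without chromosome 11, a setting chosen after seeing the data, 1928 lost start-site peaks remained, 11.2% of the control start-site peaks, and each of the 10 odds ratios stayed on its side of 1 and of the 0.05 threshold.

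**Figure D5:**
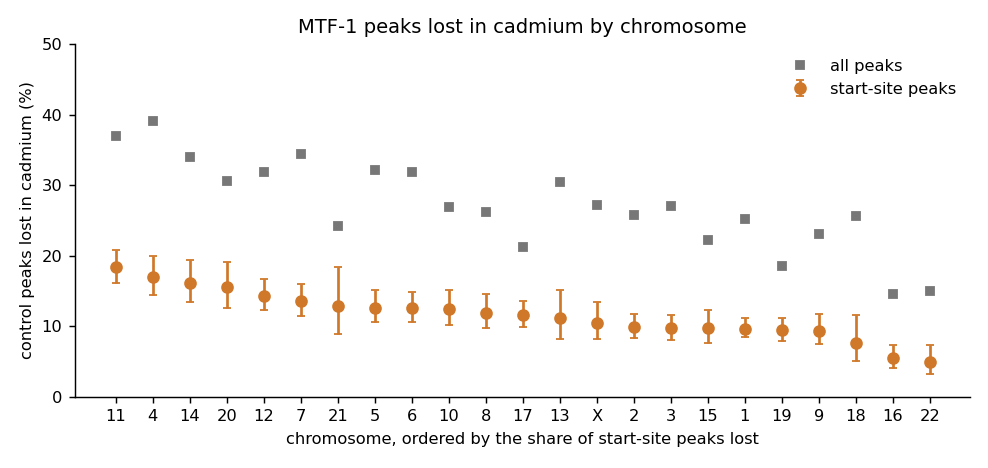
Share of control MTF-1 peaks lost in cadmium (y axis, percent) by chromosome (x axis, ordered by the share of start-site peaks lost), for start-site peaks (circles, with 95% Wilson intervals) and for all peaks (squares). Start-site shares ran from 18.4% on chromosome 11 to 4.89% on chromosome 22, below the share of all peaks on every chromosome.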

How the data were processed

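CUT&RUN reads of MTF-1 from 2 control and 2 cadmium libraries were trimmed, aligned to hg38 with Bowtie2, merged by condition and called with Epic2 by the authors (the submitters' notes name SICER 0.0.50 and SAMtools 1.8). The deposited lists hold positions in base pairs and a last column with the constant value 5, without counts or signal, so depth is unknown. On chromosomes 1 to 22 and X, 69283 control and 60121 cadmium peaks were used.

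Starts came from GENCODE 44. Lost peaks shared no base with the cadmium list. Shares have Wilson intervals. Features outside the rule were tested with Fisher's exact test, two-sided, (scipy 1.17.1) with Wald intervals and Benjamini-Hochberg adjustment over 10 tests, and by Mantel-Haenszel odds ratios (statsmodels 0.14.6) within strata. Sequences were read with pysam 0.24.0. The overlap, distance and odds ratio steps were tested on simulated data.

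The members and the 19 gene lists were chosen with earlier results of these data known, and 3 lists were corrected after their matches were seen. Named genes were the 5 widest lost peaks, the widest at canonical starts (10 coding, 5 lncRNA) without a start-site peak in cadmium, the 5 widest at coding genes with one, genes with 3 or more lost peaks (at most 5), and up to 6 genes per list by width. Others are said to be chosen by their values. Where ranks tied, position decided.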

Additional observations from a re-analysis of the deposited data

How the results depend on the processing

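No paired analysis was possible because the authors merged the replicates before peak calling, and for the same reason no library could be left out. Of 107 alternatives, 66 kept the result, 23 moved it, 7 weakened it and 11 reversed it. Joint strata, width strata with any start, and leaving out chromosome 11 were chosen after seeing the data.

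The number of lost start-site peaks, their share of control start-site peaks, their median width and the share with a gene that had a start-site peak in cadmium moved with the definition. With a start within 500 bp they were 1410, 10.1%, 999 bp and 38.3%, and within 2 kb 3322, 14.5%, an equal width and 52.7%. Starts of protein-coding transcripts alone gave 763, 6.11% and 42.2%, and canonical starts alone 1045, 7.82% and 0.478%. The last share was nearly fixed by the definition, since a gene has a single canonical start and so no other to keep. Peaks that covered a start gave a share lost of 9.91% and a median of 1599 bp. Counting a peak as lost when under 50% of it was covered gave 4735, 25.9%, 1799 bp and 71.8%, and peaks of at least 1000 bp gave 1113, 7.56% and 1999 bp. With any base of a cadmium peak within 1 kb of a start, the share with a gene occupied in cadmium was 48.9%.

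Against retained peaks, the closest canonical start had an odds ratio of 1.05 within width strata and 1.04 among peaks of at least 1000 bp, neither past the threshold, and any canonical start reversed it to 0.299, or 0.380 within width strata. The AP-1 string fell to 0.982 within width strata, 1.11 within GC strata, 0.713 within both and 0.879 in the whole peak. It stayed above 1 among peaks of at least 1000 bp (1.29, 1.04 to 1.59) and in the central 200 bp (2.03, 1.73 to 2.37). The forkhead string reversed to 0.746 in the whole peak only, and the MRE core reached 0.981 within GC strata, 1.01 within both and 0.290 in the whole peak. Against lost distal peaks, within GC strata and then within both, the odds ratios were 0.890 and 0.943 for AP-1, 1.01 and 1.03 for forkhead and 0.921 and 0.909 for the MRE core, which was 1.13 among peaks of at least 1000 bp. Apart from strata, which compare peaks of equal width or GC content, the cause of these changes was not tested. The CpG-rich and protein-coding odds ratios stayed on their side of 1 and past the threshold in every alternative run for them.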
